A study of Mus musculus with 30 samples.

Results

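Disease-associated microglia (DAM) genes are a group of genes that microglia, the resident immune cells of the brain, raise near amyloid plaques and dying neurons. Described here are 10 of them, *Trem2*, *Tyrobp*, *Clec7a*, *Axl*, *Itgax*, *Apoe*, *Lpl*, *Spp1*, *Igf1* and *Csf1*, out of 47643 genes in the deposited table. The list was set by name and not by a cut on measured values, but with earlier results of these data known. All 10 were found by their symbol and all 10 passed the filter on low values, which kept 16897 genes. They were compared with *Cst7* (cystatin F, an inhibitor of lysosomal cathepsins), another gene of this state that was higher in every Cre-positive group, to ask which members moved with it and which did not.

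The libraries come from microglia of 3-month-old mice and fall into 6 groups. Homo mice were *Bin1* flox/flox::*Cx3Cr1*-Cre+ (5 males, 5 females), Het mice were *Bin1* wt/flox::*Cx3Cr1*-Cre+ (6 males, 5 females), and mice labelled WT carried *Bin1* wt/flox without Cre (5 males, 4 females). The Cre is knocked into *Cx3cr1*, a receptor gene of microglia that other mononuclear phagocytes use too, so that 3 things separate the Cre-positive mice from WT at once, the Cre, a disrupted *Cx3cr1* copy and a deleted *Bin1* copy, and they cannot be told apart. The methods of the study describe cells sorted by flow cytometry for CD11b and CD45. The sample records instead describe a culture of newborn microglia, and which description holds was not tested.

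In the DAM state, TREM2 at the cell surface binds lipids and lipoproteins and signals through the adaptor TYROBP to the kinase SYK. Work in Alzheimer's models describes an early step that does not need TREM2, with more *Apoe* and *Tyrobp* and fewer transcripts of homeostatic genes, and a later step that does, with *Lpl*, *Cst7*, *Axl*, *Clec7a*, *Itgax*, *Spp1* and *Csf1*. The program is known for phagocytosis, lysosomes and lipid handling, and human *TREM2* and *APOE* carry risk for Alzheimer's disease, as *BIN1* does.

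The promoters of *Apoe*, *Axl*, *Clec7a* and *Csf1* are shown because these were the members with the largest changes whose window holds no annotated exon. Each is the 250 bases before the start of the gene in RefSeq on GRCm38.p6, written 5′ to 3′ on the strand of the gene, with capitals for the core motif of PU.1 (GAGGAA, or TTCCTC where it lies on the other strand), the factor that specifies macrophages and microglia. All 4 genes lie on the minus strand. The windows are chr7:19699189-19699438 for *Apoe*, chr7:25788734-25788983 for *Axl*, chr6:129472786-129473035 for *Clec7a* and chr3:107760470-107760719 for *Csf1*. In a check against GENCODE, the bases after the window matched a sense transcript of the gene for *Apoe*, *Clec7a* and *Csf1*. For *Axl* no match was found, and GENCODE starts that gene at chr7:25788705, short of the window.
Apoe: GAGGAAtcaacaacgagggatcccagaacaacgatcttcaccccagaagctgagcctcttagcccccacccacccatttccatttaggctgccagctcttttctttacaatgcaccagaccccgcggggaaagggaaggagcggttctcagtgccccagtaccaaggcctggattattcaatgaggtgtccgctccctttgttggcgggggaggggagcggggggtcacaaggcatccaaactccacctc
Axl: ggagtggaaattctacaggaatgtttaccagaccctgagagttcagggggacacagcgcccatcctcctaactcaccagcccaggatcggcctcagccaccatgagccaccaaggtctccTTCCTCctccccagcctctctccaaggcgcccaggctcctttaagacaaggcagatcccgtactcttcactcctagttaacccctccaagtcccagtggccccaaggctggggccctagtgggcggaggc
Clec7a: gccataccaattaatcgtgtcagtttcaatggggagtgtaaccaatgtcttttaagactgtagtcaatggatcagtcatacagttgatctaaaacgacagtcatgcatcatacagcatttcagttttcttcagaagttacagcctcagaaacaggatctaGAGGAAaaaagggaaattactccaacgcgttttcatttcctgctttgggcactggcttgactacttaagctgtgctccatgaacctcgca
Csf1: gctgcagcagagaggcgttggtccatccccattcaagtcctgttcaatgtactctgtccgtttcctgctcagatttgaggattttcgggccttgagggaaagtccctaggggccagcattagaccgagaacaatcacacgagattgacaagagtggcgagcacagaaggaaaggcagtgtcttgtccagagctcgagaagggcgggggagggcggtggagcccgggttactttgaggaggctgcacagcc
RefSeq promoters were matched for 8 of the 10 members, all but *Lpl* and *Tyrobp*. The PU.1 core was found in 6 of these 8 windows and in 23.1% of 27025 promoters of the same length. The AP-1 motif TGANTCA (both strands) was found in 3 of the 8, in *Trem2*, *Itgax* and *Igf1*, and in 6.85% of all promoters. The E-box CACGTG of the lysosomal factors MITF and TFEB was found in 0 of the 8 and in 6.04% of all promoters. The *Igf1* window lies inside the gene, with all 250 bases in annotated exons, and without it the PU.1 core was in 5 of 7 and the AP-1 motif in 2 of 7 windows. No binding was measured in these samples, and a match says only that the letters are there.

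Values are FPKM, fragments scaled to the length of the transcript and to the size of the library, which compares genes per length. Fold changes are on the log2(scaled FPKM + 0.1) scale, where 0.1 was added to each value, which understates the change of low genes. They come from limma in a fit of all 6 groups. A gene was called where the Benjamini-Hochberg adjusted p over all genes was below 0.05 and the fold change above 1.5. The depth of each library relative to the median library, read from the smallest steps between low values, was 0.6695 to 1.41, and absolute depth is unknown. Microglia markers summed to 14239 to 20286 FPKM in all libraries, and lymphocyte markers to at most 0.670. *Bin1* was at 230.3 to 289.5 FPKM in male and 244 to 271 in female WT mice and at 39.9 to 55.6 and 39.5 to 43.3 in Homo mice. The libraries labelled Het-F-0206 and Het-M-0199 had *Bin1* at 42.7 and 51.8 FPKM, near or within the range of the Homo mice of their sex, and *Cx3cr1* was at 13.9 FPKM in Het-F-0206. Several results that include Het mice, and the slopes on *Cst7*, are therefore also given without both libraries. The mouse numbers form an early run that ends with WT-F-0122 and a later one that starts at WT-M-0176, with a gap between them. Early numbers were carried by 3 of 5 male Homo, 2 of 6 male Het and 1 of 4 female WT mice, and by 0 male WT mice.

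The members spanned more than 3 orders of magnitude. Over all 30 libraries the mean levels were 2011 FPKM for *Tyrobp*, 1223 for *Trem2*, 403 for *Apoe*, 26.0 for *Clec7a*, 9.96 for *Csf1*, 9.48 for *Axl*, 9.03 for *Lpl*, 3.11 for *Itgax*, 2.46 for *Spp1* and 0.574 for *Igf1*. *Csf1*, *Axl* and *Lpl* were neighbours in this order with SDs over the libraries of 3.10, 4.51 and 2.26 FPKM, larger than the gaps between their means, and *Itgax* and *Spp1* also lay within their SDs of 1.06 and 0.951 FPKM. *Cst7* was at 35.0 ± 19.6 FPKM (SD, n = 30). The receptor and its adaptor were therefore abundant in every mouse, and 5 of the genes of the later step stood below 10 FPKM on average.

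*Cst7* separated Cre-positive from WT mice without overlap in both sexes. It was taken as the reference because it was already known to rise in these data, so its p-values here describe it and are no independent test. In males its FPKM was 10.4, 10.1, 10.1, 7.14 and 13.1 in WT, 36.2, 45.2, 41.0, 52.7 and 53.4 in Homo and 31.4 to 61.2 (median 40.7) in Het mice. In females it was 7.48, 9.46, 10.4 and 7.36 in WT, 41.3, 47.6, 50.5, 39.9 and 36.7 in Homo and 41.8, 85.3, 44.2, 47.3 and 35.6 in Het mice. The log2 fold change against WT of the same sex was 2.08 in male Homo, 2.02 in male Het, 2.31 in female Homo and 2.48 in female Het mice, with adjusted p of 1.35e-06, 1.01e-06, 5.04e-07 and 9.35e-08. Without the libraries Het-F-0206 and Het-M-0199 the values in Het mice were 1.94 (unadjusted p = 3.52e-11, adjusted p = 5.95e-07) in males and 2.28 (unadjusted p = 1.17e-11, adjusted p = 1.97e-07) in females.

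Few members passed the test beside *Cst7*. In male Homo against WT mice 1 of the 10 members was called, *Apoe*, which fell, where 1.81% of all genes were called. At an unadjusted p below 0.05 there were 4 members and 22.5% of all genes. In male Het mice 0 of 10 members and 0.154% of all genes were called by limma, and 3 members and 14.2% of all genes had an unadjusted p below 0.05. In female Homo mice 0 of 10 members and 0.071% of all genes were called by limma, and an unadjusted p below 0.05 was found for 2 members and 3.49% of all genes. In female Het mice 1 of 10 was called, *Axl*, which rose, where 0.13% of all genes were called, and 4 members and 3.95% of all genes had an unadjusted p below 0.05. The medians of the log2 fold changes of the 10 members were 0.096, 0.20, 0.12 and 0.28 in these 4 comparisons, beside 0.031, 0.0145, 0.001 and 0 over all genes tested.

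**Figure D1:**
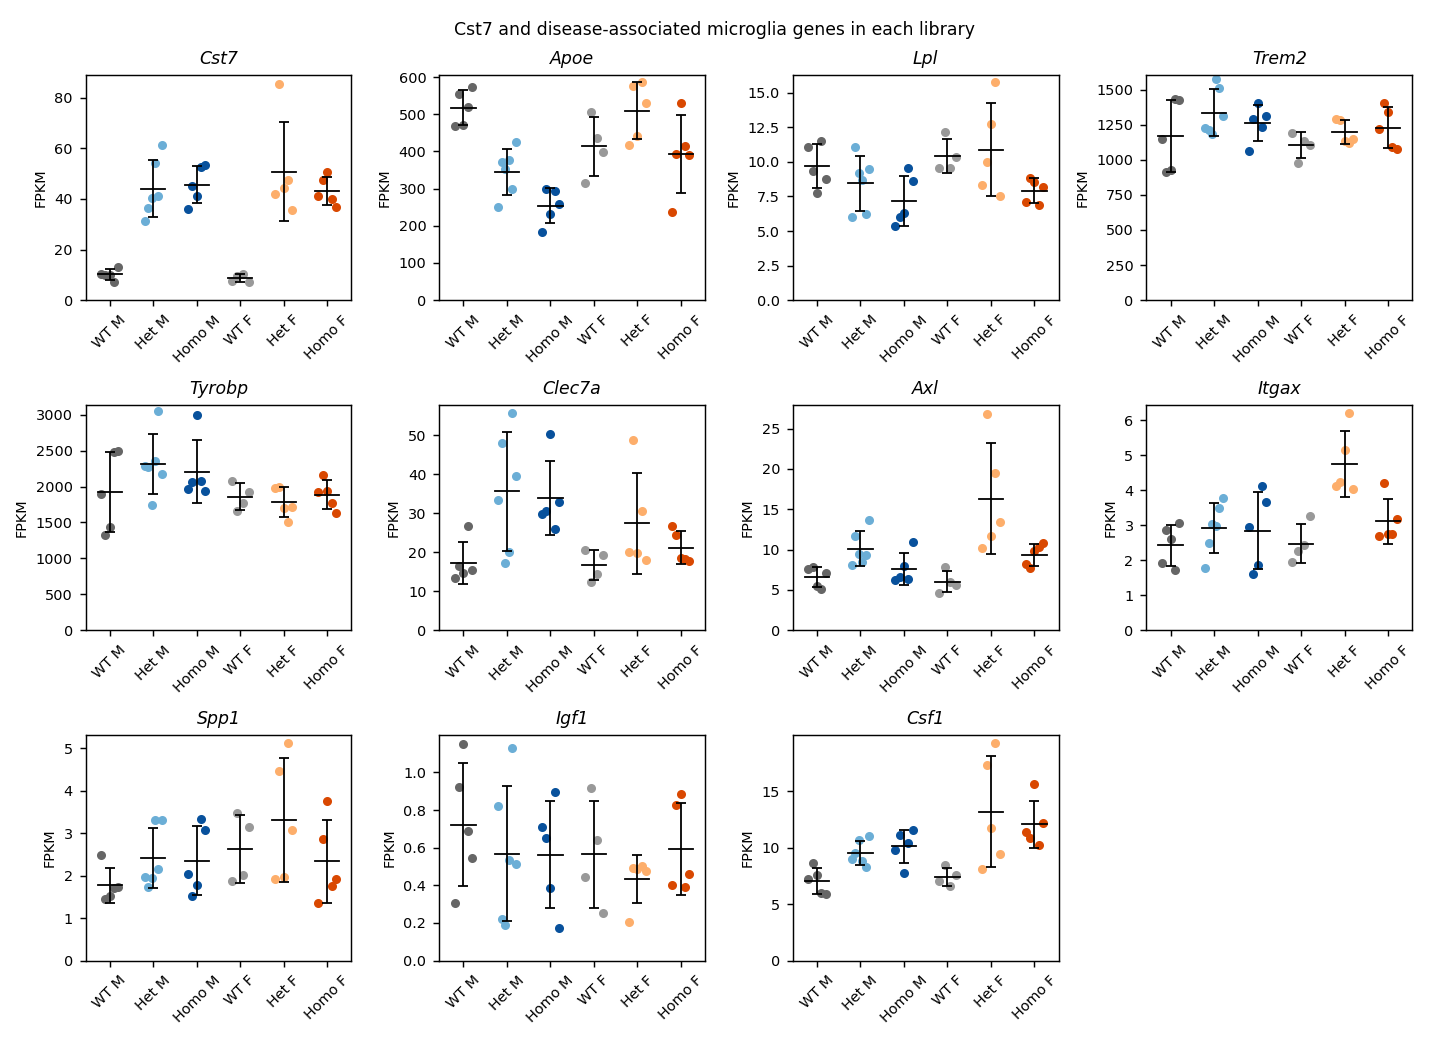
FPKM (vertical axis, from 0) of *Cst7* and the 10 members in each of the 30 libraries (points), by group, with the mean (horizontal line) and SD (bars) of each group of 4 to 6 libraries. *Cst7* lies at 7.14 to 13.1 FPKM in WT and 31.4 to 85.3 in Cre-positive libraries, *Apoe* is lower in male Homo and Het mice than in every male WT mouse, and *Trem2* and *Tyrobp* overlap between all groups.

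Counted by whether the libraries overlap, *Apoe* was the only member lower in every male Homo library than in every male WT library (1.37% of all genes were lower without overlap, 2.56% higher), and 0 members were higher. In male Het mice *Apoe* lay below (0.326% of all genes) and *Axl* above (0.515%) every WT library. In female Homo mice *Lpl* lay below (0.663%) and *Csf1* above (1.65%) every WT library. In female Het mice *Axl* and *Itgax* lay above every WT library (1.58%), and 0 members lay below (0.633%).

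Positions of genes are on GRCm38 (mm10). *Trem2* (ENSMUSG00000023992, chr17:48346401-48354147, plus strand) and *Tyrobp* (ENSMUSG00000030579, chr7:30413760-30417585, plus strand), the receptor and its adaptor, overlapped between all groups. *Trem2* was at 1151, 913, 925, 1434 and 1429 FPKM in male WT and 1064, 1292, 1407, 1231 and 1309 in male Homo mice, with 1181 to 1574 (median 1269) in male Het mice. Its log2 fold changes were 0.046 (SE 0.13, adjusted p = 0.870) in male Homo, 0.14 (SE 0.13, adjusted p = 0.619) in male Het, 0.15 (SE 0.14, adjusted p = 1) in female Homo and 0.11 (SE 0.14, adjusted p = 1) in female Het mice. The 95% confidence intervals reached from -0.22 to 0.31 in male Homo to -0.14 to 0.43 in female Homo mice, so that changes of 1.5-fold lie outside all 4.

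*Tyrobp* was at 1894, 1330.2, 1434, 2477 and 2495 FPKM in male WT, 1969, 2067, 2989, 2072 and 1937 in male Homo and 1747 to 3051 (median 2282) in male Het mice. Male WT mice fell on both sides of the female range, which was 1657 to 2079.7 in WT, 1513 to 2000.1 in Het and 1635 to 2165 in Homo mice. The log2 fold changes of *Tyrobp* were 0.14, 0.22, 0.015 and -0.068 in male Homo, male Het, female Homo and female Het mice, with adjusted p of 0.612, 0.489, 1 and 1. *Trem2* and *Tyrobp* varied together from library to library, with a Pearson r of 0.797 over the 30 libraries after the mean of each group was subtracted. *Tyrobp* was at a median of 1.51 to 1.76 times the FPKM of *Trem2* in the 6 groups.

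*Clec7a* (ENSMUSG00000079293, chr6:129461591-129472779, minus strand) encodes Dectin-1, a C-type lectin receptor that signals through SYK. Its FPKM in males was 13.4, 16.4, 14.6, 26.7 and 15.5 in WT, 29.7, 30.5, 50.2, 26.0 and 32.8 in Homo and 17.2 to 55.6 (median 36.5) in Het mice. A single WT library, WT-M-0202, reached into the Homo range, and it lay above only the lowest Homo library. The log2 fold change was 0.89 (SE 0.26, adjusted p = 0.0592) in male Homo and 0.88 (SE 0.25, adjusted p = 0.153) in male Het mice, so that neither passed the threshold. Without Het-F-0206 and Het-M-0199 the male Het value was 1.01 (unadjusted p = 0.000148, adjusted p = 0.0640).

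The male Homo value of *Clec7a* lay close to the threshold and its call depended on the libraries and settings: it passed without WT-M-0202, at 1.04 (adjusted p = 0.0264), without Homo-M-0189, at 0.95 (adjusted p = 0.0403), and without Het-F-0206 and Het-M-0199, at 0.89 (adjusted p = 0.0362). Among late numbered mice, which leaves 2 male Homo libraries, it was 0.79 (adjusted p = 0.614). In females *Clec7a* was at 20.6, 12.3, 14.5 and 19.4 FPKM in WT, 26.7, 24.5, 18.5, 18.2 and 17.9 in Homo and 20.0, 48.8, 19.9, 30.6 and 17.9 in Het mice. The highest of these, 48.8, was Het-F-0206, and without it the log2 fold change of female Het mice went from 0.63 (SE 0.28, adjusted p = 1) to 0.40 (adjusted p = 1).

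*Axl* (ENSMUSG00000002602, chr7:25757273-25788705, minus strand) encodes a TAM receptor tyrosine kinase that recognises dying cells through the ligand GAS6. In females its FPKM was 4.63, 7.81, 6.05 and 5.62 in WT, 10.2, 26.8, 11.7, 19.5 and 13.4 in Het and 8.16, 7.75, 9.83, 10.3 and 10.8 in Homo mice. Every female Het library lay above every WT library, with Het-F-0206 the highest, while the Homo range reached just below the highest WT library. *Axl* rose in female Het mice by a log2 fold change of 1.35 (SE 0.24, adjusted p = 0.00823), and it was 0.64 (SE 0.24, unadjusted p = 0.0123, adjusted p = 1) in female Homo mice.

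The female Het call of *Axl* held without Het-F-0206, at 1.15 (adjusted p = 0.0436), but not without both Het-F-0206 and Het-M-0199, at 1.15 (adjusted p = 0.0511). It was also lost without WT-F-0122, the WT library with the lowest *Axl* and the only early numbered female, at 1.22 (adjusted p = 0.0536), and where only female Het and WT libraries were fitted, at 1.35 (adjusted p = 0.333). In males *Axl* was at 7.55, 7.88, 5.47, 5.11 and 7.09 FPKM in WT, 6.21, 6.59, 8.02, 6.37 and 10.95 in Homo and 8.04 to 13.7 (median 9.38) in Het mice. The Het libraries lay above every WT library, whereas the Homo libraries overlapped with WT. The log2 fold change was 0.53 (SE 0.22, adjusted p = 0.301) in male Het and 0.11 (SE 0.22, adjusted p = 0.814) in male Homo mice.

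*Itgax* (ENSMUSG00000030789, chr7:128129547-128150657, plus strand) encodes the integrin CD11c, which marks dendritic cells and a subset of activated microglia. In females its FPKM was 1.97, 2.26, 2.43 and 3.27 in WT, 4.12, 4.23, 5.15, 6.22 and 4.05 in Het and 2.68, 4.22, 2.76, 2.76 and 3.19 in Homo mice. The Het and WT libraries did not overlap, while those of Homo and WT did. Without Het-F-0206 and Het-M-0199 the log2 fold change in female Het mice was 0.95 (unadjusted p = 0.00285, adjusted p = 0.615). With them it was 0.91 (SE 0.27, adjusted p = 0.345) in female Het and 0.32 (SE 0.27, adjusted p = 1) in female Homo mice. Dendritic cell markers summed to 2.79 to 3.80 FPKM in female WT and to 2.09 to 4.41 in female Het mice. In males *Itgax* was at 1.72 to 3.06 FPKM in WT, 1.79 to 3.77 in Het and 1.62 to 4.13 in Homo mice, with log2 fold changes of 0.18 in Het and 0.084 in Homo mice.

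*Apoe* (ENSMUSG00000002985, chr7:19696109-19699188, minus strand) encodes apolipoprotein E, the main lipid carrier that glia secrete and a ligand of TREM2. It fell in male Homo mice, where *Cst7* rose. Its FPKM was 469.8, 555, 471, 518 and 572 in male WT, 185, 298, 232, 295 and 259.7 in male Homo and 252 to 426 (median 361) in male Het mice. Every Homo and every Het library lay below every WT library. *Apoe* was at 517 ± 47.2 (SD over 5 libraries) in male WT and 254 ± 47.3 (SD over 5 libraries) in male Homo mice with a log2 fold change of -1.13 (SE 0.20, adjusted p = 0.00230). In male Het mice the change was -0.67 (SE 0.19, adjusted p = 0.140), and without Het-F-0206 and Het-M-0199 it was -0.71 (unadjusted p = 0.00132, adjusted p = 0.125).

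In females the libraries of *Apoe* overlapped between all groups, with 315, 507, 435 and 399.7 FPKM in WT, 237, 393, 531, 414 and 389 in Homo and 417, 575, 441, 586 and 529.7 in Het mice. The log2 fold change was -0.10 (SE 0.21, adjusted p = 1) in female Homo and 0.30 (SE 0.21, adjusted p = 1) in female Het mice. A test of the sex difference itself took the male minus the female log2 fold change. It amounted to -1.02 (SE 0.28, unadjusted p = 0.00118, adjusted p = 0.495) in Homo and -0.97 (SE 0.28, unadjusted p = 0.00157, adjusted p = 0.860) in Het mice, so that the difference passed neither adjusted threshold.

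Of the late numbered mice, 2 male Homo libraries remain, at 294.7 and 259.7 FPKM, both below every male WT library. In that fit *Apoe* was at -0.90 (adjusted p = 0.160) and no longer passed. With all libraries and the number range as a covariate in limma, *Apoe* was at -0.87 (adjusted p = 0.0494), just below the threshold. Markers of border macrophages, which express *Apoe*, summed to 17.5 to 47.0 FPKM in male WT (median 42.2) and to 12.4 to 29.7 in male Homo mice (median 23.3), with all 7 markers detected in both groups. Choroid plexus markers summed to 0.264 to 271 FPKM in male WT and to 0.436 to 23.6 in male Homo mice, and dissociation response genes to 38.2 to 46.9 and 45.5 to 64.6. With the border macrophage markers as a covariate, an alternative added after the data were seen, *Apoe* was at -1.09 (adjusted p = 0.0117) in male Homo mice. The part of the choroid plexus and dissociation genes in the result was not tested. In bulk samples, fewer cells of a type and less RNA per cell cannot be told apart.

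*Lpl* (ENSMUSG00000015568, chr8:68880491-68907448, plus strand), the lipase that frees fatty acids from lipoproteins, was listed at 9.57, 12.2, 9.55 and 10.3 FPKM in female WT and 7.10, 8.85, 8.56, 6.85 and 8.21 in female Homo mice, without overlap. In males it was at 11.1, 9.38, 7.75, 11.5 and 8.78 in WT and 5.39, 6.05, 6.27, 9.58 and 8.65 in Homo mice. The 3 lowest Homo libraries were those with early numbers, and the 2 late ones lay within the WT range. Its log2 fold change was -0.53 (SE 0.21, adjusted p = 0.133) in male Homo and -0.39 (SE 0.22, adjusted p = 1) in female Homo mice, and -0.082 (adjusted p = 0.974) among the late numbered males. Without Homo-M-0189, one of these 2, it was -0.67 (adjusted p = 0.0490) in male Homo mice and passed. In Het mice it was -0.29 (SE 0.20, adjusted p = 0.497) in males and 0.014 (SE 0.22, adjusted p = 1) in females.

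*Csf1* (ENSMUSG00000014599, chr3:107741048-107760469, minus strand), the growth factor that keeps microglia alive through CSF1R, had a positive log2 fold change in all 4 comparisons, and none of them passed the test. In females it was at 7.07, 8.46, 6.60 and 7.57 FPKM in WT, 11.4, 10.8, 15.6, 10.2 and 12.2 in Homo and 8.07, 17.3, 11.8, 19.3 and 9.45 in Het mice. Every Homo library lay above every WT library, while the lowest Het library lay below the highest WT library. The log2 fold change was 0.68 (SE 0.21, unadjusted p = 0.00294, adjusted p = 0.659) in female Homo and 0.74 (SE 0.21, unadjusted p = 0.00135, adjusted p = 0.278) in female Het mice, and 0.63 (unadjusted p = 0.00769, adjusted p = 0.908) in the latter without Het-F-0206 and Het-M-0199. In males it was at 7.20, 8.59, 7.57, 6.02 and 5.86 in WT, 9.78, 11.1, 7.71, 10.4 and 11.5 in Homo and 8.24 to 11.02 (median 9.24) in Het mice, with log2 fold changes of 0.43 (SE 0.20, adjusted p = 0.192) in Homo and 0.36 (SE 0.19, adjusted p = 0.376) in Het mice.

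*Spp1* (ENSMUSG00000029304, chr5:104435118-104441050, plus strand) encodes osteopontin, a secreted ligand of integrins and CD44. It stood at 1.44 to 2.48 FPKM in male WT, 1.74 to 3.32 in male Het and 1.52 to 3.34 in male Homo mice, and at 1.87 to 3.48, 1.92 to 5.13 and 1.36 to 3.76 in female WT, Het and Homo mice. Its log2 fold changes lay between -0.21 in female Homo and 0.33 in male Het mice. *Igf1* (ENSMUSG00000020053, chr10:87858265-87937042, plus strand), a growth factor, was the lowest member, at 0.171 to 1.15 FPKM. The number of fragments behind such a value is not known and may be low. Its log2 fold changes ran from -0.45 in male Het to 0.10 in female Homo mice, with standard errors of 0.39 to 0.43. All groups overlapped with WT for both genes, and the smallest adjusted p over the 4 comparisons was 0.562 for *Igf1* and 0.605 for *Spp1*.

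**Figure D2:**
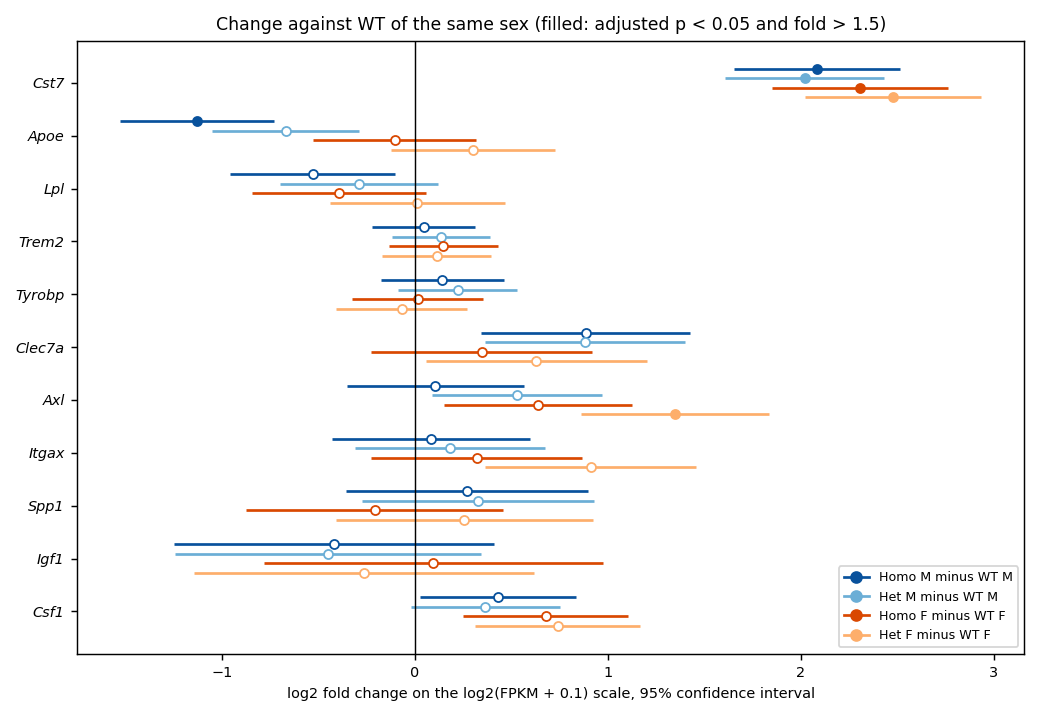
Log2 fold change against WT of the same sex (horizontal axis, log2(FPKM + 0.1) scale) of *Cst7* and the 10 members in 4 comparisons (colours), with 95% confidence intervals as lines and filled points for called genes. *Cst7* lies at 2.02 to 2.48 in all 4 comparisons, and the members called were *Apoe* in male Homo mice at -1.13 and *Axl* in female Het mice at 1.35.

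Homo and Het mice of the same sex both carry Cre, so by their labels they differ in the second *Bin1* copy alone. In males 0 of 10 members were called, as were 0 (0%) of all genes, with 1 member and 3.85% of all genes at an unadjusted p below 0.05 in limma. The member was *Apoe*, at -0.46 (SE 0.19, unadjusted p = 0.0206, adjusted p = 0.998). Without Het-F-0206 and Het-M-0199 there were 2, *Axl* at -0.45 (unadjusted p = 0.0368, adjusted p = 1) and *Apoe* at -0.41 (unadjusted p = 0.0464, adjusted p = 1), where *Axl* had been at -0.42 (SE 0.22, unadjusted p = 0.0603, adjusted p = 0.998) with them. In females 0 of 10 were called, where 0.0118% of all genes were, with 3 members and 2.06% of all genes at an unadjusted p below 0.05: *Axl* at -0.71 (SE 0.22, unadjusted p = 0.00356, adjusted p = 1), *Itgax* at -0.59 (SE 0.25, unadjusted p = 0.0259, adjusted p = 1) and *Apoe* at -0.41 (SE 0.20, unadjusted p = 0.0460, adjusted p = 1), all lower in Homo mice. Without Het-F-0206 and Het-M-0199, *Axl* was at -0.52 (unadjusted p = 0.0259, adjusted p = 1), *Itgax* at -0.63 (unadjusted p = 0.0298, adjusted p = 1) and *Apoe* at -0.36 (unadjusted p = 0.0955, adjusted p = 1). *Cst7* differed by 0.064 (SE 0.20, adjusted p = 0.998) in males and -0.17 (SE 0.21, adjusted p = 1) in females, with 95% confidence intervals of -0.35 to 0.48 and -0.60 to 0.26. Without Het-F-0206 and Het-M-0199 it differed by 0.14 (unadjusted p = 0.438, adjusted p = 1) in males and by 0.028 (unadjusted p = 0.887, adjusted p = 1) in females, where the sign turned.

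The sexes were compared in the same fit. Between female and male WT mice 0 of 10 members were called, where 0.0473% of all genes were called, and 0 members and 2.91% of all genes had an unadjusted p below 0.05 in limma. The difference of the Homo effect between males and females was called for 0 of 10 members, and for 0% of all genes, and *Apoe* and 9.29% of all genes had an unadjusted p below 0.05. For the Het effect it was 0 of 10 members and 0% of all genes, and *Apoe*, *Axl* and 4.53% of all genes had an unadjusted p below 0.05. *Axl* differed by -0.82 (SE 0.32, unadjusted p = 0.0160, adjusted p = 0.860) (male minus female) in Het mice, and by -0.59 (unadjusted p = 0.0661, adjusted p = 0.713) without Het-F-0206 and Het-M-0199. *Apoe* without both was at -0.97 (unadjusted p = 0.00302, adjusted p = 0.713).

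**Figure D3:**
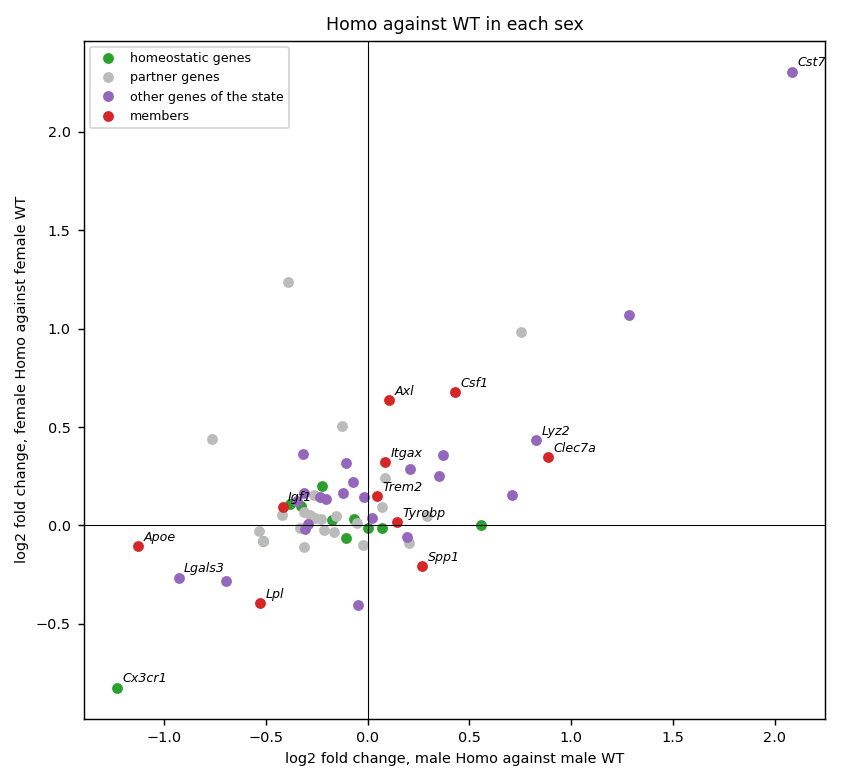
Log2 fold change of Homo against WT in females (vertical axis) against that in males (horizontal axis), on the log2(FPKM + 0.1) scale, for the 10 members and the lists of other genes of the state, partner genes and homeostatic genes (points). *Cst7* stands apart at 2.08 in males and 2.31 in females, while *Apoe* is at -1.13 in males and -0.10 in females.

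Whether members follow *Cst7* from mouse to mouse was asked within the groups, since across groups *Cst7* merely separates WT from Cre-positive mice. The log2 level of *Cst7* was added as a term beside the 6 groups, and a slope of 1 means that a gene doubles when *Cst7* does. Of the 10 members 4 had a slope with an adjusted p below 0.05, where 13.5% of all genes did: *Axl* at 0.69 (SE 0.16, adjusted p = 0.0111), *Apoe* at 0.56 (SE 0.14, adjusted p = 0.0137), *Spp1* at 0.84 (SE 0.23, adjusted p = 0.0199) and *Csf1* at 0.51 (SE 0.15, adjusted p = 0.0283). All 4 slopes were positive. *Apoe*, which was lower in male Homo mice, was thus higher in those mice of a group that had more *Cst7*.

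The slope was 0.56 (SE 0.20, adjusted p = 0.0617) for *Itgax*, 0.40 (SE 0.17, adjusted p = 0.117) for *Lpl*, 0.21 (SE 0.11, adjusted p = 0.193) for *Trem2* and 0.23 (SE 0.37, adjusted p = 0.714) for *Igf1*. *Tyrobp* and *Clec7a* had the slopes nearest to 0, at 0.038 (SE 0.14, adjusted p = 0.880) and 0.061 (SE 0.24, adjusted p = 0.894). *Clec7a* was thus a gene with log2 fold changes of 0.89 and 0.88 in male Homo and Het mice and with no relation to *Cst7* within groups that passed the test.

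The count of 4 slopes rested on the spread of a few mice and on the scaling between libraries. Without Het-M-0100 it was 0, with *Axl* at 0.68 (adjusted p = 0.0683) and *Apoe* at 0.50 (adjusted p = 0.0826), and without Het-M-0210 it was 2, with *Spp1* at 0.82 (adjusted p = 0.0568) and *Csf1* at 0.51 (adjusted p = 0.0682). Without Het-F-0206, which had the highest *Cst7*, it was 6, with *Itgax* at 0.83 (adjusted p = 0.00686) and *Lpl* at 0.58 (adjusted p = 0.0292) added. Without both Het-F-0206 and Het-M-0199 it was 6 as well, and 21.3% of all genes had such a slope. There *Apoe* was at 0.70 (adjusted p = 0.00570), *Itgax* at 0.88 (adjusted p = 0.00904), *Axl* at 0.67 (adjusted p = 0.0125), *Spp1* at 0.87 (adjusted p = 0.0335), *Lpl* at 0.60 (adjusted p = 0.0380) and *Csf1* at 0.54 (adjusted p = 0.0392). Without Het-F-0206 and Het-M-0210, the 2 libraries farthest from the rest in *Cst7* within their groups, it was 3, with *Apoe* at 0.68 (adjusted p = 0.0108), *Itgax* at 0.84 (adjusted p = 0.0201) and *Spp1* at 0.89 (adjusted p = 0.0439), while *Clec7a* was at -0.56 (adjusted p = 0.131). On FPKM as deposited it was 0, with *Axl* at 0.64 (adjusted p = 0.106). Among late numbered mice it was also 0, with *Axl* at 0.74 (adjusted p = 0.877), *Spp1* at 0.70 (adjusted p = 0.977), *Csf1* at 0.54 (adjusted p = 0.977) and *Apoe* at 0.39 (adjusted p = 0.977). The share of all genes with such a slope moved too, to 0.0118% without Het-M-0100 and on FPKM as deposited, to 25.2% without Het-F-0206 and to 0% among late numbered mice.

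**Figure D4:**
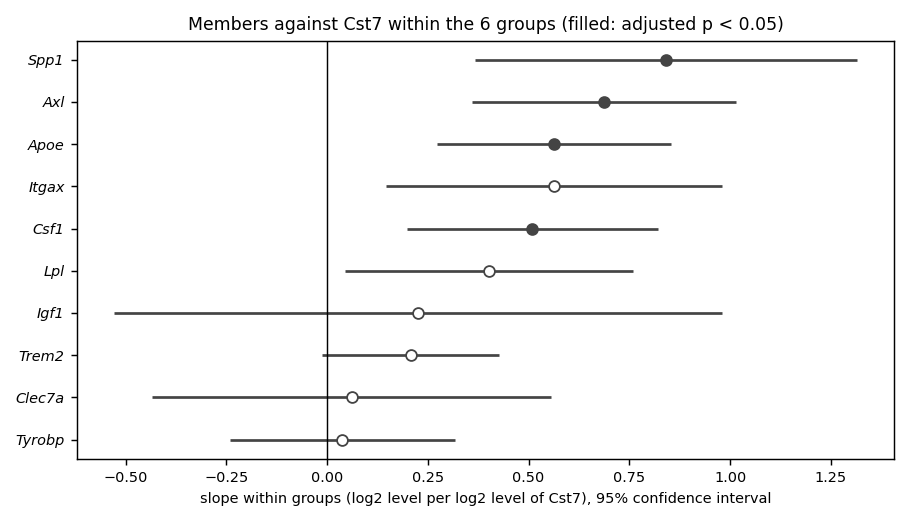
Slope of the log2 level of each member on the log2 level of *Cst7* within the 6 groups (horizontal axis), with 95% confidence intervals as lines and filled points where the adjusted p was below 0.05. *Spp1*, *Axl*, *Apoe* and *Csf1* lie at 0.84, 0.69, 0.56 and 0.51, and *Clec7a* and *Tyrobp* at 0.06 and 0.04.

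**Figure D5:**
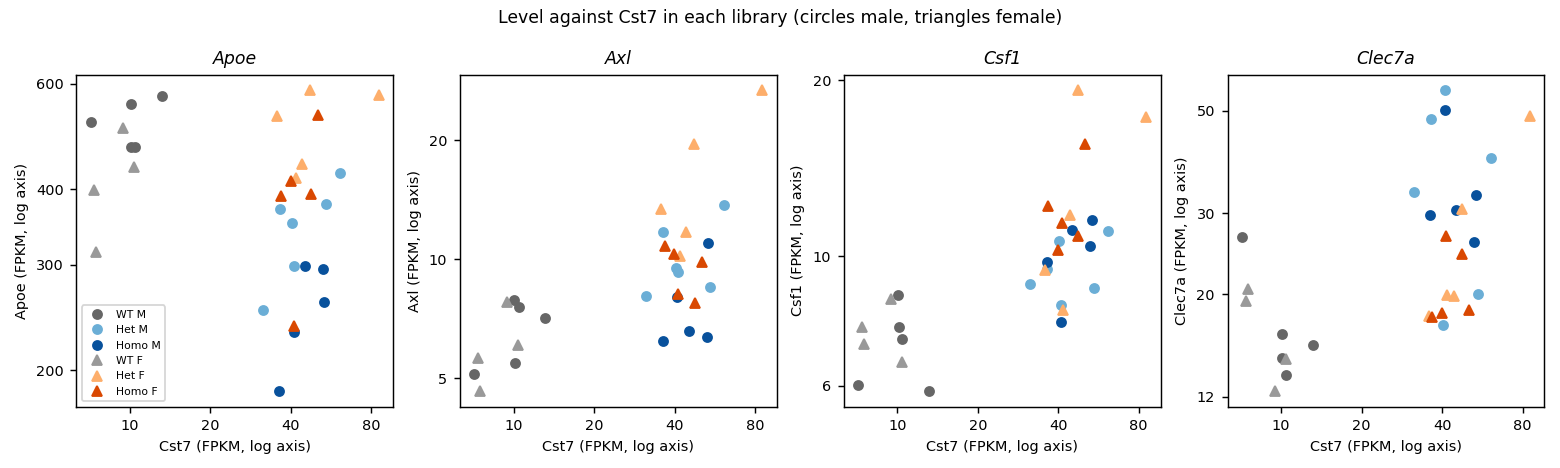
FPKM of *Apoe*, *Axl*, *Csf1* and *Clec7a* (vertical log axes) against that of *Cst7* (horizontal log axis) in each of the 30 libraries, by group (colours) and sex (circles male, triangles female). WT libraries lie at 7.14 to 13.1 FPKM of *Cst7*, and Het-F-0206 has the highest *Cst7* and *Axl*, at 85.3 and 26.8 FPKM.

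For each member the gene with the most similar pattern was sought among 11622 genes, by Pearson's r over the 30 libraries after the mean of each group was subtracted. These values are descriptions, since the libraries share depth and quality. The closest genes were *Rbm8a* for *Apoe* (r = 0.84), *Clic4* for *Lpl* (0.81), *Atraid* for *Trem2* (0.937), *Rps9* for *Tyrobp* (0.959), *Lyz2* for *Clec7a* (0.855), *Il2rg* for *Axl* (0.832), *Isy1* for *Itgax* (0.791), *Gsto1* for *Spp1* (0.808), *Acap3* for *Igf1* (0.631) and *Mfsd12* for *Csf1* (0.82). *Igf1* had the weakest best match. Among the members themselves, *Axl* and *Csf1* had an r of 0.686, *Apoe* and *Spp1* 0.655, and *Csf1* and *Lpl* 0.62, while *Tyrobp* and *Csf1* had -0.469.

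Of the other DAM genes, 24 were listed and 23 matched and were tested. *Cst7* is among them, and it was taken as the reference because it rose in every group, so its calls add nothing here. In male Homo mice 3 were called, where 1.81% of all genes were: *Cst7* and *Lyz2* (lysozyme) rose, *Lyz2* by 0.83 (SE 0.19, adjusted p = 0.0181), and *Lgals3* (galectin-3) fell, at -0.93 (SE 0.26, adjusted p = 0.0487). In male Het mice, where 0.154% of all genes were called, *Cst7* and *Lyz2* rose, *Lyz2* by 0.85 (SE 0.18, adjusted p = 0.0379). In female Homo and female Het mice *Cst7* alone was called, beside 0.071% and 0.13% of all genes. Neutrophil markers, which moved with these groups, summed to 43.9 to 349 FPKM in male WT and to 0 to 80.8 in male Homo mice, and their part in the calls of *Lyz2* and *Lgals3* was not tested. The medians of the 23 log2 fold changes were -0.07, -0.05, 0.15 and 0.20 in male Homo, male Het, female Homo and female Het mice. In this order 9, 11, 18 and 16 of them were positive. An unadjusted p below 0.05 in limma was found for 7, 6, 3 and 7 of the 23, *Cst7* included. The shares of all genes were 22.5%, 14.2%, 3.49% and 3.95%. The cathepsins *Ctsb* and *Ctsd*, proteases of the lysosome, had log2 fold changes of -0.31 and -0.29 in male Homo mice, with adjusted p of 0.258 and 0.409. *Ch25h* of the same list was not called in any of these comparisons. Its log2 fold changes were 1.28 (SE 0.37, unadjusted p = 0.00171 in limma, adjusted p = 0.0547) in male Homo and 0.95 (SE 0.36, unadjusted p = 0.0125, adjusted p = 0.275) in male Het mice. In females they were 1.07 (SE 0.39, unadjusted p = 0.0112 in limma) in Homo and 1.41 (SE 0.39, unadjusted p = 0.00123, adjusted p = 0.267) in Het mice.

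The partner genes are the receptors, ligands, kinases and lipid genes that work with the members. Of 24 listed, 23 were tested and 0 were called in each of the 4 comparisons against WT, with 5 at an unadjusted p below 0.05 in limma in male Homo mice, 5 in male Het, 2 in female Homo and 1 in female Het mice, beside 22.5%, 14.2%, 3.49% and 3.95% of all genes. The medians of their log2 fold changes were -0.23, -0.17, 0.048 and 0.056 in this order. *Syk*, the kinase downstream of TREM2 and CLEC7A, had a log2 fold change of -0.022 (SE 0.092, adjusted p = 0.915) in male Homo mice. The partners with the highest levels were *Csf1r*, the receptor of CSF1 and also on the homeostatic list, at -0.51 (SE 0.22, adjusted p = 0.156) in male Homo mice, the integrin *Itgb5* at -0.42 (SE 0.18, adjusted p = 0.168), *Pros1*, a ligand of TAM receptors, at -0.33 (SE 0.19, adjusted p = 0.292), and *Inpp5d*, a lipid phosphatase that restrains TREM2 signalling, at -0.23 (SE 0.10, adjusted p = 0.171). *Abcg1*, which exports cholesterol to lipoproteins, was at -0.54 (SE 0.16, adjusted p = 0.0618).

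Homeostatic genes, which fall in the DAM state, had 0 of 11 called in each of the 4 comparisons against WT, with 3 at an unadjusted p below 0.05 in limma in male Homo mice, 1 in male Het, 0 in female Homo and 1 in female Het mice, against the same shares of all genes. Their medians were -0.17, -0.19, 0.0039 and -0.028 in this order. *P2ry12*, the purinergic receptor of resting microglia, was at 0.0016 (SE 0.17, adjusted p = 0.999) in male Homo mice and the receptor gene *Gpr34* at 0.56 (SE 0.16, adjusted p = 0.0537). Both belong to the 3 of the 11 genes with a positive value in this comparison, and the others were negative. Among the negative ones, *Tmem119* was at -0.38 (SE 0.17, unadjusted p = 0.0290 in limma, adjusted p = 0.172). *Cx3cr1* itself was at -1.23 (SE 0.69, adjusted p = 0.290) in male Homo mice in this fit, which includes Het-F-0206, and at -1.23 (SE 0.18, unadjusted p = 2.81e-07, adjusted p = 0.000431) without Het-F-0206 and Het-M-0199. Without both it was at -1.31 (adjusted p = 0.000262) in male Het mice. In female Homo and Het mice it was at -0.82 (adjusted p = 0.143) and -0.86 (adjusted p = 0.165). With all libraries, every Cre-positive library lay below every WT library of its sex, where 0.326% to 1.37% of all genes did. The Cre is knocked into this gene.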

How the data were processed

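The authors sequenced RNA of microglia, aligned paired reads to mm10, ran RSEM and deposited its FPKM. The table lists 47643 genes, and 20506 of them had no signal anywhere. FPKM hold no read totals. The DESeq2 fit of the study was not repeated, since counts were not used here, and 6 columns of values that match no listed sample were left out.

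Each of the 30 libraries was divided by a median-of-ratios factor (0.9387 to 1.148, from 11436 genes), 0.1 was added, and log2 values of 16897 genes (mean FPKM 0.1 or more) were fitted with limma 3.58.1 (R 4.3.3, Python 3.11.15) with an intensity trend, as contrasts of 6 groups and as slopes on *Cst7*. All p-values are two-sided and adjusted over all genes tested. Libraries are labelled with separate mouse numbers. The fit was first checked on data with known changes.

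The members, the lists and the tests were chosen with earlier results of these data known. Named genes are the members, *Cst7*, *Bin1*, *Cx3cr1*, the genes called in a list or otherwise up to 4 of a list, and for each member the gene with the most similar pattern. *Ctsb*, *Ctsd*, *Syk* and *Abcg1* were named for their role after their values were seen. *Ch25h* and *Tmem119* were named because of their values. Positions are from GENCODE M21 on GRCm38, and promoters from RefSeq. Markers of monocytes summed to at most 18.5 FPKM in any library, those of neutrophils to at most 349, astrocytes 28.7, oligodendrocytes 141, neurons 17.6, endothelial cells 14.9 and choroid plexus 271. Other pseudocounts, other filters, quantile normalization or no scaling, array weights, only the groups compared, the range of mouse numbers and left-out libraries were tried as alternatives.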

Additional observations from a re-analysis of the deposited data

Results flagged for a closer look

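In the 10 members, *Cst7*, *Bin1* and *Cx3cr1*, 78 sets of a gene and a group were searched for a library far from the rest by Dixon's test, and 8 were found, where chance gives about 1 in 20. Of these, 3 were in Het-F-0206: *Bin1* at 42.7 FPKM (others 151.6 to 164), *Cx3cr1* at 13.9 (others 1048 to 1243) and *Cst7* at 85.3 (others 35.6 to 47.3). Homo-M-0109 had *Clec7a* at 50.2 FPKM (others 26.0 to 32.8) and *Tyrobp* at 2989 (others 1937 to 2072). WT-M-0202 had *Clec7a* at 26.7 FPKM (others 13.4 to 16.4), and WT-M-0176 had *Spp1* at 2.48 (others 1.44 to 1.72). In Het-F-0205 *Igf1* was at 0.203 FPKM, where the others lay at 0.475 to 0.503.

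*Apoe* lay below the mean of WT in every male Het library and above it in every female Het library. The difference between the sexes, male minus female, was -0.97 on the log2 scale, with an adjusted p of 0.860 by limma, so that it did not pass.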

How the results depend on the processing

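Of 541 alternative values of the counts of called genes and of slopes, 492 stayed within 1.5 times the main count, and the others are given here. Among the members, the call of *Apoe* in male Homo mice was lost among late numbered mice (0 of 10), and 2 were called with only genes above a mean of 1 FPKM, with array weights, and without Het-F-0206 and Het-M-0199, where *Clec7a* joined. Leaving out single libraries gave 1 to 3, with 3 without Homo-M-0189 and 2 without WT-M-0202. In female Het mice 0 were called with only the groups compared, among late numbered mice, and without Het-F-0206 and Het-M-0199, and 0 to 1 without single libraries, with 0 without WT-F-0122. The slopes on *Cst7* numbered 0 without scaling, with the number range as a covariate and among late mice, and 0 to 6 without single libraries, with 0 without Het-M-0100, 2 without Het-M-0210 and 6 without Het-F-0206. Among the other DAM genes in male Homo mice 5 were called with array weights, 1 with only the groups compared, with the number range as a covariate and among late mice, and 1 to 4 without single libraries (1 without Homo-M-0109, WT-M-0176, WT-M-0177 or WT-M-0178). In male Het mice it was 1 with all genes with any FPKM, quantile normalization, only the groups compared, the number range, late mice and the border macrophage covariate, and 1 to 2 without single libraries (1 without Het-M-0100, Het-M-0108, Het-M-0203, Het-M-0210, WT-M-0176, WT-M-0177, WT-M-0178 or WT-M-0258). For partner genes in male Homo mice it was 1 with the border macrophage covariate and 0 to 1 without single libraries (1 without Homo-M-0189, Homo-M-0190 or WT-M-0202). For homeostatic genes in male Homo mice it was 1 without scaling, with quantile normalization, array weights, only the groups compared, and without Het-F-0206 and Het-M-0199, and 0 to 1 without single libraries (1 without WT-M-0202), in male Het mice 1 without Het-F-0206 and Het-M-0199, and in female Homo mice 1 with only the groups compared. The cause was not tested in any of these.

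Signs turned for log2 fold changes near 0 that passed no test. With the border macrophage covariate, chosen after the data were seen, these were *Trem2* (-0.040) and *Itgax* (-0.12) in male Homo, *Itgax* (-0.080) in male Het, *Tyrobp* (-0.026) in female Homo and *Lpl* (-0.075) in female Het mice. With quantile normalization they were *Itgax* (-0.067) in male Homo and *Tyrobp* (0.0019) in female Het mice, and for *Lpl* in female Het mice -0.085 with the number range and -0.037 among late mice. Without single libraries the ranges that crossed 0 were -0.024 to 0.13 for *Trem2*, -0.045 to 0.19 for *Axl* and -0.090 to 0.26 for *Itgax* in male Homo mice, -0.24 to 0.067 for *Apoe*, -0.031 to 0.062 for *Tyrobp* and -0.17 to 0.35 for *Igf1* in female Homo mice, and -0.15 to 0.13 for *Lpl* in female Het mice.

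Without scaling the median of all genes in male Homo mice moved from 0.031 to 0.11. *Igf1* has no value when genes below a mean of 1 FPKM are left out. The paper describes the WT mice as littermates, but the sample labels name no litter. Litters could therefore not be paired or entered in the fit. FPKM without read totals give no counting error, which limits *Igf1* and *Spp1* most.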
